A study of Mus musculus with 12 samples.

Results

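The genes described here are 35 scavenger and endocytic receptors other than the stabilins, chosen as a list of gene names and grouped by role. All 35 were found among the 24011 genes tested, each on 1 row of the table. Liver sinusoidal endothelial cells (LSECs) were isolated from mouse livers with CD146 magnetic beads, and their RNA was measured on Affymetrix arrays. Each of 4 genotypes had 3 arrays: wild type (WT), mice lacking Stab1 (Stab1KO), mice lacking Stab2 (Stab2KO) and double knockouts lacking both genes (DKO). Every mouse was of the C57BL/6J strain and aged 3 to 4 months, and every array held RNA pooled from 3 mice of 1 genotype. The labels call each pool a biological replicate, and they record no treatment in any group. The sources used here do not state how the alleles were made, whether the genes were lost in LSECs alone, or whether WT and knockout mice were littermates. The question was whether other receptors of the same uptake routes were higher where stabilin-1, stabilin-2 or both were missing.

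LSECs line the sinusoids of the liver and clear modified lipoproteins, matrix fragments, immune complexes and glycoproteins from blood. Stabilin-1 and stabilin-2 are their class H scavenger receptors. The same cells carry other uptake receptors, among them the mannose receptor, the inhibitory IgG receptor FcγRIIb and the C-type lectin LSECtin. Most of these receptors bind ligand at the surface, enter through clathrin-coated pits, release their load in endosomes and return to the surface. The receptors of this set also include some that are known from other cells, such as the asialoglycoprotein receptor of hepatocytes and the cubilin-amnionless complex of kidney and gut.

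All values are log2 expression values. A value of 1 gene cannot be set against that of another on such arrays, so comparisons run between arrays only. Detection calls were not used here. The 8 members that lay below the array median of 5.11 on all 12 arrays, Scara5, Megf10, Lrp2, Vldlr, Asgr1, Asgr2, Cubn and Amn, may hold mostly background. A gene was called where limma's adjusted p was under 0.05 over all 24011 genes. Differences are given with the standard error (SE) of that model, or with its 95% interval. In RNA of a bulk cell isolate, fewer cells of a type and less RNA per cell cannot be told apart.

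Both targeted genes followed the labels. Stab1 lay at 12.46 or above in each array of WT and Stab2KO and at 5.45 or below in each array of Stab1KO and DKO, and Stab2 lay at 12.99 or above against 7.60 or below. The 16 LSEC markers had a mean of 12.22 to 12.27 in WT, 12.14 to 12.25 in Stab1KO, 12.08 to 12.13 in Stab2KO and 11.72 to 12.03 in DKO. All 3 DKO arrays were below the other 9 arrays. The median difference of these markers from WT was -0.01 in Stab1KO, -0.03 in Stab2KO and -0.24 in DKO. In the single knockouts the largest difference was that of Fcna, at -1.16 and -1.55. DKO replicate 3 stood apart: it correlated with the other arrays at 0.956 to 0.968 across genes, where the other 11 correlated at 0.987 or above. All 10 neutrophil markers were highest in that array, at a mean of 12.36 against 6.56 and 7.07 in the other DKO arrays and 5.58 to 6.93 in the other genotypes. Without it the DKO minus WT difference changed sign in 6 members (Scarf2, Lrp2, Lrp4, Lrp8, Pla2r1 and Asgr2) and moved by over 1.5 times in another 15.

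Loss of either stabilin alone was not accompanied by a called change in any of the 35 receptors. In Stab1KO against WT 0 of 35 were called by limma, where 0.308% of all genes were called. At an unadjusted p under 0.05, 1 member was higher (Igf2r) and 1 lower (Lrp1), where 3.91% of all genes passed in either direction. In Stab2KO against WT 0 of 35 were called, where the share of all genes was 0.296%, and the unadjusted threshold took in 1 higher (Amn) and 1 lower (Lrp1), where it took in 7.62% of all genes. The median log2 difference of the members was 0.03 in Stab1KO and -0.04 in Stab2KO, against 0.0052 and 0.0065 for all genes. The count of members stayed 0 in both comparisons under each alternative fit and with each array left out.

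The receptors best known from LSECs were measured tightly enough to bound a difference. Fcgr2b, which encodes FcγRIIb and clears small immune complexes, measured 13.48, 13.60 and 13.60 in WT, 13.53, 13.48 and 13.60 in Stab1KO, 13.48, 13.50 and 13.51 in Stab2KO and 13.51, 13.57 and 13.38 in DKO. Its 95% interval ran from -0.18 to 0.14 log2 in Stab1KO and from -0.23 to 0.09 in Stab2KO. The 4 genotypes overlapped. Mrc1, the mannose receptor that takes up collagen chains and lysosomal enzymes, measured 13.23, 13.21 and 13.21 in WT, 13.18, 13.18 and 13.23 in Stab1KO, 13.18, 13.15 and 13.15 in Stab2KO and 13.07, 12.94 and 12.69 in DKO. In the single knockouts its mean lay within 0.06 of WT. Stab1KO overlapped WT, all 3 Stab2KO arrays lay below WT, and the 3 DKO arrays were below all others. Clec4g, which encodes LSECtin, measured 13.76, 13.73 and 13.67 in WT, 13.67, 13.79 and 13.79 in Stab1KO, 13.73, 13.76 and 13.55 in Stab2KO and 13.56, 13.53 and 13.44 in DKO. Here Stab1KO overlapped WT, as did Stab2KO, and DKO lay below WT and below Stab1KO. Msr1, a class A scavenger receptor that binds acetylated lipoprotein, measured 11.73, 11.93 and 11.81 in WT, 11.90, 11.94 and 11.86 in Stab1KO, 11.85, 11.89 and 11.61 in Stab2KO and 11.91, 11.93 and 11.73 in DKO, and all 4 genotypes overlapped, with an interval from -0.17 to 0.24 in DKO against WT. Over the whole set, the 95% interval lay inside 0.5 log2 of 0 for 23 of 35 members in Stab1KO and 23 in Stab2KO, or 65.7% in each. The shares of all genes were 76.2% and 72.6%. In DKO the count was 17 of 35, or 48.6%, where the share of all genes was 65.4%. The model pools the spread of each gene over the 4 genotypes, so spread among the DKO arrays also widens the single-knockout intervals. For Ly75 the Stab1KO interval ran from -1.49 to 1.67. Its SD was 0.17 in WT, 0.05 in Stab1KO and 2.01 in DKO. The part of the DKO arrays in the single-knockout shares was not tested.

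**Figure D1:**
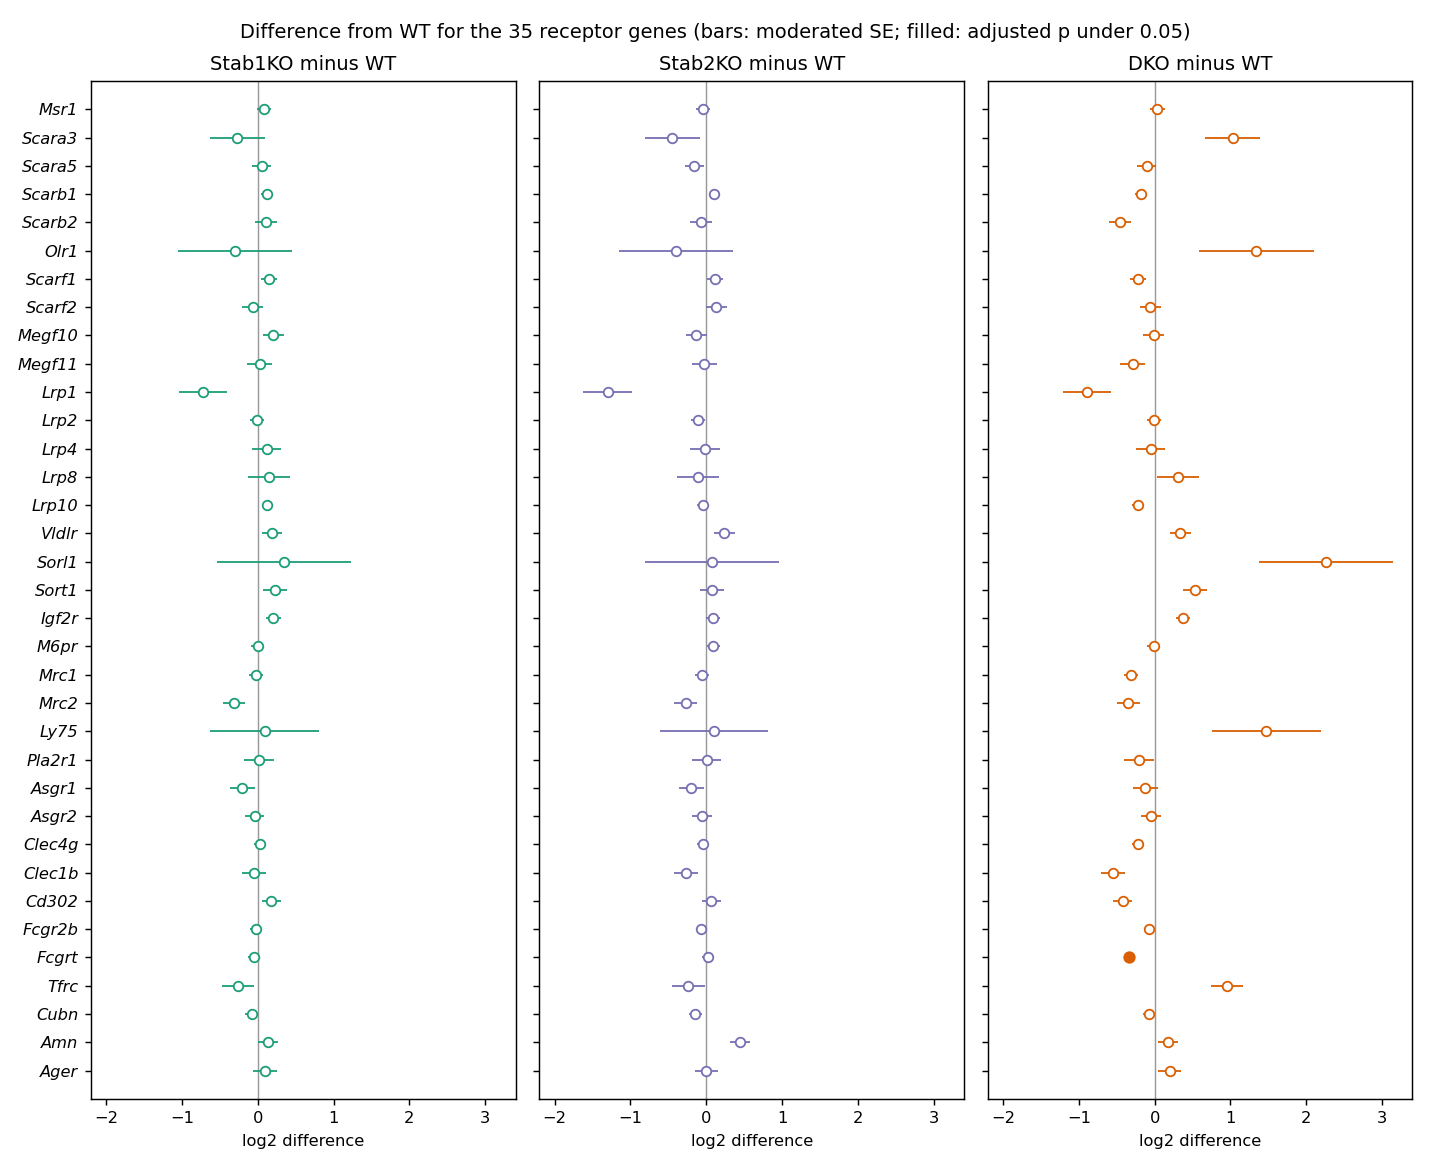
Log2 difference from WT (horizontal axis) of the 35 receptor genes in Stab1KO, Stab2KO and DKO, with bars for the moderated SE and filled points for adjusted p under 0.05, from 3 arrays a genotype. The point farthest from 0 in each single knockout is Lrp1, at -0.72 and -1.30, and the one filled point is Fcgrt in DKO.

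The only called members, Fcgrt and Tfrc, were called in comparisons that include DKO, and of the 2 only Fcgrt was called in DKO against WT. Fcgrt encodes the heavy chain of the neonatal Fc receptor, which pairs with β2-microglobulin and returns IgG and albumin from endosomes to blood. It measured 13.10, 13.15 and 13.02 in WT, 12.99, 13.07 and 13.07 in Stab1KO, 13.09, 13.13 and 13.13 in Stab2KO and 12.81, 12.83 and 12.64 in DKO. All 3 DKO arrays lay below the other 9. Fcgrt fell in DKO against WT (-0.33 ± 0.07 SE, limma adjusted p = 0.048). It also fell against Stab2KO (-0.36 ± 0.07 SE, limma adjusted p = 0.031), while the difference from Stab1KO, -0.28 ± 0.07 SE, did not pass (limma adjusted p = 0.094). The fall against WT was a 1.26-fold difference, and its call was lost when any single one of the 12 arrays was left out. The call against Stab2KO was lost in 5 of those 12 fits. Without DKO replicate 3 the difference was -0.27 ± 0.07 SE (limma adjusted p = 0.098). Its partner B2m measured 13.87, 13.79 and 13.76 in WT and 13.82, 13.87 and 13.79 in DKO.

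Tfrc, which encodes the transferrin receptor that brings iron into cells, measured 4.44, 4.999 and 4.81 in WT, 4.60, 4.25 and 4.62 in Stab1KO, 4.41, 4.52 and 4.62 in Stab2KO and 5.79, 6.10 and 5.21 in DKO. Each DKO array lay above the 9 others, whose highest value was that of WT replicate 2. The values of those 9 arrays were below the array median, so the share of background in them is unknown. Tfrc rose in DKO against Stab1KO (1.21 ± 0.21 SE, 2.32-fold, limma adjusted p = 0.03). It also rose against Stab2KO (1.19 ± 0.21 SE, 2.28-fold, limma adjusted p = 0.022). Against WT the difference of 0.95 ± 0.21 SE missed the threshold (limma adjusted p = 0.053). The 3 comparisons share the DKO arrays. The moderated F-test over the 3 knockouts called Tfrc alone of the 35 members (limma adjusted p = 0.038), where it called 1.62% of all genes.

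DKO replicate 3 was the lowest of the 3 DKO arrays for Tfrc. Without it the differences were 1.197 ± 0.17 SE against WT, 1.46 ± 0.17 SE against Stab1KO and 1.43 ± 0.17 SE against Stab2KO, and all 3 passed (limma adjusted p = 0.0092, 0.0071 and 0.0046). In those fits 1.04%, 1.12% and 1.96% of all genes were called higher. The departure from additivity, the difference DKO minus Stab2KO less the difference Stab1KO minus WT, was 1.45 ± 0.30 SE (limma adjusted p = 0.11). Without DKO replicate 3 it was 1.69 ± 0.23 SE (limma adjusted p = 0.019). The call against Stab1KO was lost in 8 of the 12 fits with 1 array left out and the call against Stab2KO in 3 of 12. The exact permutation p of each comparison of Fcgrt and Tfrc named as called was 0.1, the smallest that 3 against 3 arrays allow.

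The stretches just upstream of the annotated starts of these 2 genes are shown because they are the members with a called difference. They are the 250 bases before the start in RefSeq's GRCm38.p6 annotation, written 5′ to 3′ on the gene's strand, at chr16:32608646-32608895 (strand +) for Tfrc and chr7:45103823-45104072 (strand -) for Fcgrt. RefSeq lists 2 starts for Tfrc, and the one at the 5′ end of the gene is given. Capitals mark any match on either strand to the GATA factor motif AGATAA, the E-box CACGTG, the cyclic AMP response element TGACGT or the GC box GGGCGG.
Tfrc: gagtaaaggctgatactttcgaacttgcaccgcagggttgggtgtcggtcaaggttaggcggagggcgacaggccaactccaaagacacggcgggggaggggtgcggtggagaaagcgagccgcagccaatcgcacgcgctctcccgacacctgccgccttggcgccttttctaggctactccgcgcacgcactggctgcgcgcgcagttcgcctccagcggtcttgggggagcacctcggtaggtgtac
Fcgrt: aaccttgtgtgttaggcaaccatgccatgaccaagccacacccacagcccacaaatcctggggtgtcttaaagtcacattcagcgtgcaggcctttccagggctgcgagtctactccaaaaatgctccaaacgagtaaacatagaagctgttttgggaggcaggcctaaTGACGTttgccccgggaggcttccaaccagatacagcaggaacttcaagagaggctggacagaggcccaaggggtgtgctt
The stretch of Fcgrt held 1 match, to TGACGT, with its first base 81 bases before the start, and that of Tfrc held 0, with no overlapping matches. Upstream stretches were on hand for 24 of the 35 members. Of these 3 held AGATAA, 4 held CACGTG, 2 held TGACGT and 9 held GGGCGG, or 12.5%, 16.7%, 8.33% and 37.5%. Among all 32851 stretches the shares were 9.99%, 6.02%, 6.47% and 32.7%.

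**Figure D2:**
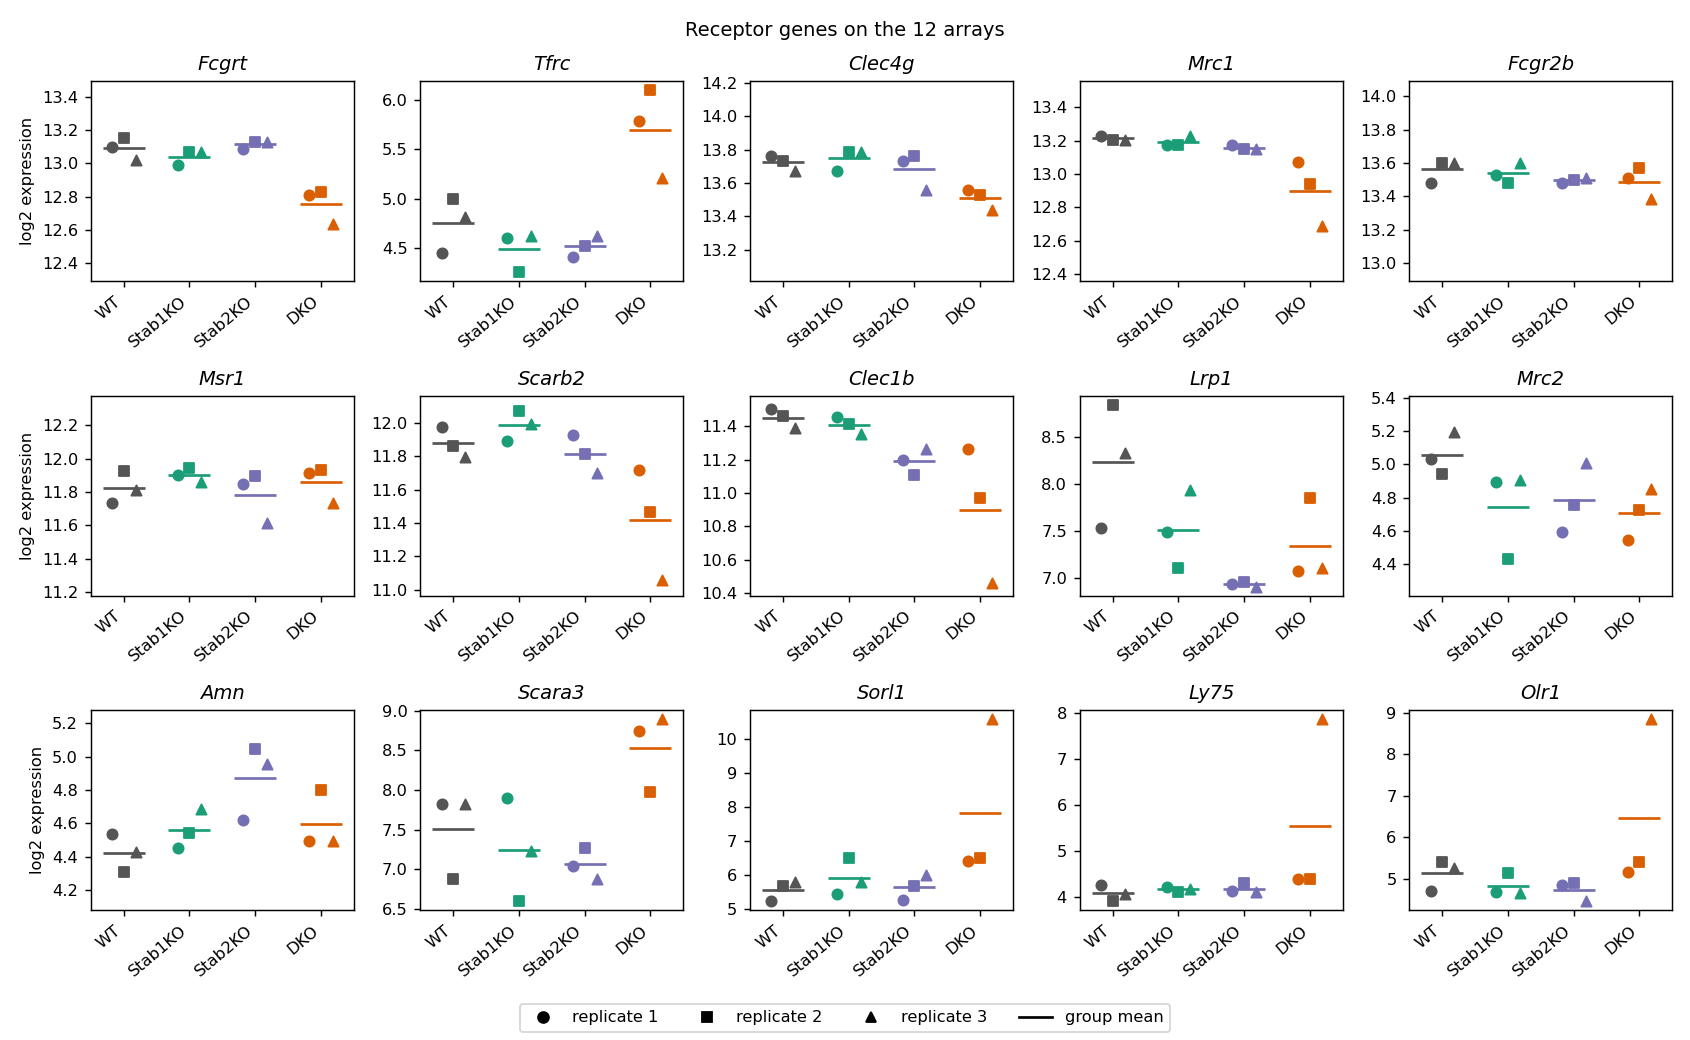
Log2 expression (vertical axis, its range set per gene) of 15 receptor genes on the 12 arrays by genotype, with 1 symbol per replicate and a line at the group mean. Fcgrt lies below and Tfrc above all other genotypes in DKO, and Sorl1, Ly75 and Olr1 are high in DKO replicate 3 at 10.59, 7.87 and 8.84.

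Most members that lay apart from WT in DKO did not pass the test. In DKO against WT 1 of 35 members was called, where 1.8% of all genes were called and 1.05% were called lower. At an unadjusted p under 0.05 there were 6 higher and 10 lower, where 16.7% of all genes passed in either direction. In 11 members all 3 DKO arrays lay below all 3 WT arrays, or 31.4% against 15% of all genes. In 7 members all 3 lay above, or 20% against 8.97%. Of the 16 LSEC markers 68.8% lay below in this way and 6.25% above. Of the 15 chaperone, adaptor and trafficking genes described further down, 40% lay below and 0 above. In Stab1KO 1 member lay below WT (Mrc2) and 5 above (Scarb1, Megf10, Lrp10, Sort1 and Igf2r), where all genes gave 4.72% and 5.36%. In Stab2KO 6 lay below (Lrp1, Lrp10, Mrc1, Asgr1, Clec1b and Cubn) and 3 above (Scarb1, Vldlr and Amn). All genes gave 7.63% and 8.09% there. In DKO the 11 were Scarb1, Scarb2, Scarf1, Megf11, Lrp10, Mrc1, Mrc2, Clec4g, Clec1b, Cd302 and Fcgrt, and the 7 were Scara3, Vldlr, Sorl1, Sort1, Igf2r, Ly75 and Tfrc. Without DKO replicate 3 the DKO arrays lay below WT in 14 members, or 40% against 20% of all genes, and above WT in 7, or 20% against 16.1%. The median difference of the members was -0.06 with that array and -0.04 without it, against -0.02 and -0.01 for all genes.

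Clec1b, Scarb2, Mrc1 and Clec4g lay below WT in all 3 DKO arrays, while Fcgr2b and Msr1 overlapped WT. Clec1b, which encodes the podoplanin receptor CLEC-2 of platelets and mouse LSECs, measured 11.51, 11.46 and 11.39 in WT, 11.46, 11.41 and 11.35 in Stab1KO, 11.20, 11.11 and 11.27 in Stab2KO and 11.26, 10.97 and 10.46 in DKO. Stab1KO overlapped WT, while all 3 Stab2KO and all 3 DKO arrays lay below WT, at differences of -0.26 ± 0.16 SE and -0.55 ± 0.16 SE (limma adjusted p = 0.78 and 0.11). Scarb2 encodes LIMP-2, which carries glucocerebrosidase to lysosomes. It measured 11.97, 11.87 and 11.79 in WT, 11.89, 12.07 and 11.996 in Stab1KO, 11.93, 11.81 and 11.70 in Stab2KO and 11.72, 11.47 and 11.06 in DKO, with DKO at -0.46 ± 0.14 SE against WT (limma adjusted p = 0.14). The DKO arrays lay below WT without overlap, and DKO replicate 3 was the lowest of the 12. Mrc1 differed by -0.31 ± 0.09 SE and Clec4g by -0.22 ± 0.08 SE in DKO against WT (limma adjusted p = 0.11 and 0.19). Without DKO replicate 3 the differences of Clec1b, Scarb2, Mrc1 and Clec4g were -0.34, -0.28, -0.21 and -0.18, and none passed. Fcgr2b differed from WT by -0.07 with that array and -0.02 without it, and Msr1 by 0.04 and 0.10.

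Among the 16 LSEC markers, of which none is a member, 2 were called lower in DKO against WT, with a median of -0.24, and 13 of 16 had their lowest value in DKO replicate 3. The 6 pan-endothelial markers had a mean of 12.22 to 12.25 in WT, 12.23 to 12.26 in Stab1KO, 12.27 to 12.30 in Stab2KO and 11.85 to 12.23 in DKO, and all 6 were lowest in that array. The 6 markers of large vessel endothelium lay the other way: all 6 were above 0 in DKO against WT, 4 of them called higher (Gja5, Selp, Fbln2 and Cd34), with a median of 1.03. Their mean was 8.54 to 9.46 in WT, 9.39 to 9.62 in Stab1KO, 9.58 to 9.69 in Stab2KO and 9.76 to 10.09 in DKO. Platelets also carry Clec1b, and the 4 platelet markers measured had a mean of 6.29 to 6.73 in WT, 6.28 to 6.74 in Stab1KO, 6.57 to 6.76 in Stab2KO and 6.51 to 6.74 in DKO. The 14 Kupffer cell and macrophage markers had medians of -0.11, -1.22 and -0.39 in Stab1KO, Stab2KO and DKO against WT, with 0 called. All 14 lay below 0 in Stab2KO. The part of LSEC content, large vessel endothelium, platelets and macrophages in the receptor values, that of Clec1b included, was not tested. Of the members 13 had their lowest value of the 12 arrays in DKO replicate 3 and 7 their highest, or 37.1% and 20% of 35, against 24.1% and 11.4% of all genes.

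**Figure D3:**
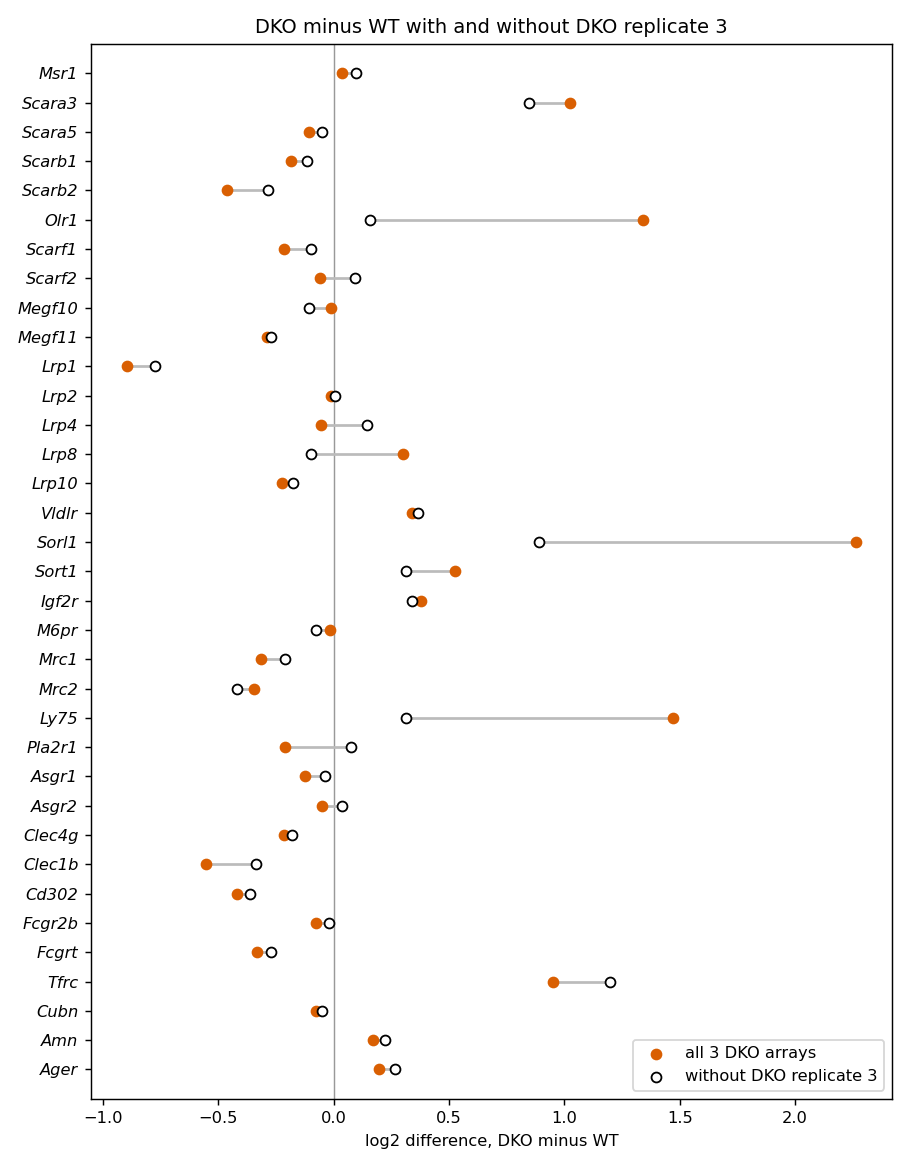
Log2 difference DKO minus WT (horizontal axis) of the 35 receptor genes with all 3 DKO arrays (filled) and without DKO replicate 3 (open), joined by a line. Sorl1, Ly75 and Olr1 move from 2.26, 1.47 and 1.34 to 0.89, 0.31 and 0.16, while Tfrc moves from 0.95 to 1.197.

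The members with the largest differences in DKO against WT, Sorl1, Ly75 and Olr1, were high in DKO replicate 3. Sorl1 encodes a sorting receptor that moves cargo between the Golgi apparatus and endosomes, and measured 5.24, 5.69 and 5.80 in WT, 5.45, 6.51 and 5.80 in Stab1KO, 5.26, 5.69 and 6.00 in Stab2KO and 6.42, 6.51 and 10.59 in DKO. Each DKO array lay above WT, and DKO replicate 3 was far above the other 2. Ly75, which encodes DEC-205, an antigen uptake receptor of dendritic cells, measured 4.26, 3.91 and 4.07 in WT, 4.21, 4.12 and 4.18 in Stab1KO, 4.14, 4.30 and 4.12 in Stab2KO and 4.39, 4.40 and 7.87 in DKO. Olr1, the receptor LOX-1 for oxidised low-density lipoprotein, measured 4.72, 5.40 and 5.27 in WT, 4.68, 5.14 and 4.67 in Stab1KO, 4.85, 4.89 and 4.46 in Stab2KO and 5.16, 5.41 and 8.84 in DKO. In the other 2 DKO arrays Olr1 overlapped WT, and Ly75 lay just above the highest WT array. Apart from DKO replicate 3, every array measured Ly75 below the array median, so the share of background in these values is unknown. The differences of Sorl1, Ly75 and Olr1 were 2.26 ± 0.88 SE, 1.47 ± 0.72 SE and 1.34 ± 0.75 SE, and 0.89 ± 0.30 SE, 0.31 ± 0.10 SE and 0.16 ± 0.22 SE without DKO replicate 3. None passed in either fit, and DKO replicate 3 decides the size of each.

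Of the 10 neutrophil markers all were highest in DKO replicate 3, and 8 lay above WT in all 3 DKO arrays. The mean of the list was 5.58 to 6.05 in WT, 5.73 to 6.93 in Stab1KO, 5.60 to 6.62 in Stab2KO and 6.56 to 12.36 in DKO. Ly6g, a surface protein gene of mouse neutrophils, measured 3.94, 3.80 and 11.65 in DKO. The mean of 5 dendritic cell markers was 5.77 in DKO replicate 3, the lowest of the 12 arrays. Of these, Xcr1, Flt3 and Siglech lay below the array median on all 12 arrays, and Clec9a and Zbtb46 had their lowest values in that array, at 6.97 and 8.70. The part of neutrophil RNA in the 3 receptor values was not tested. Lrp8, which encodes the reelin receptor ApoER2, had its highest value in the same array, at 6.19 against 4.77 to 5.52 elsewhere, and its difference from WT was 0.30 with that array and -0.10 without it.

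**Figure D4:**
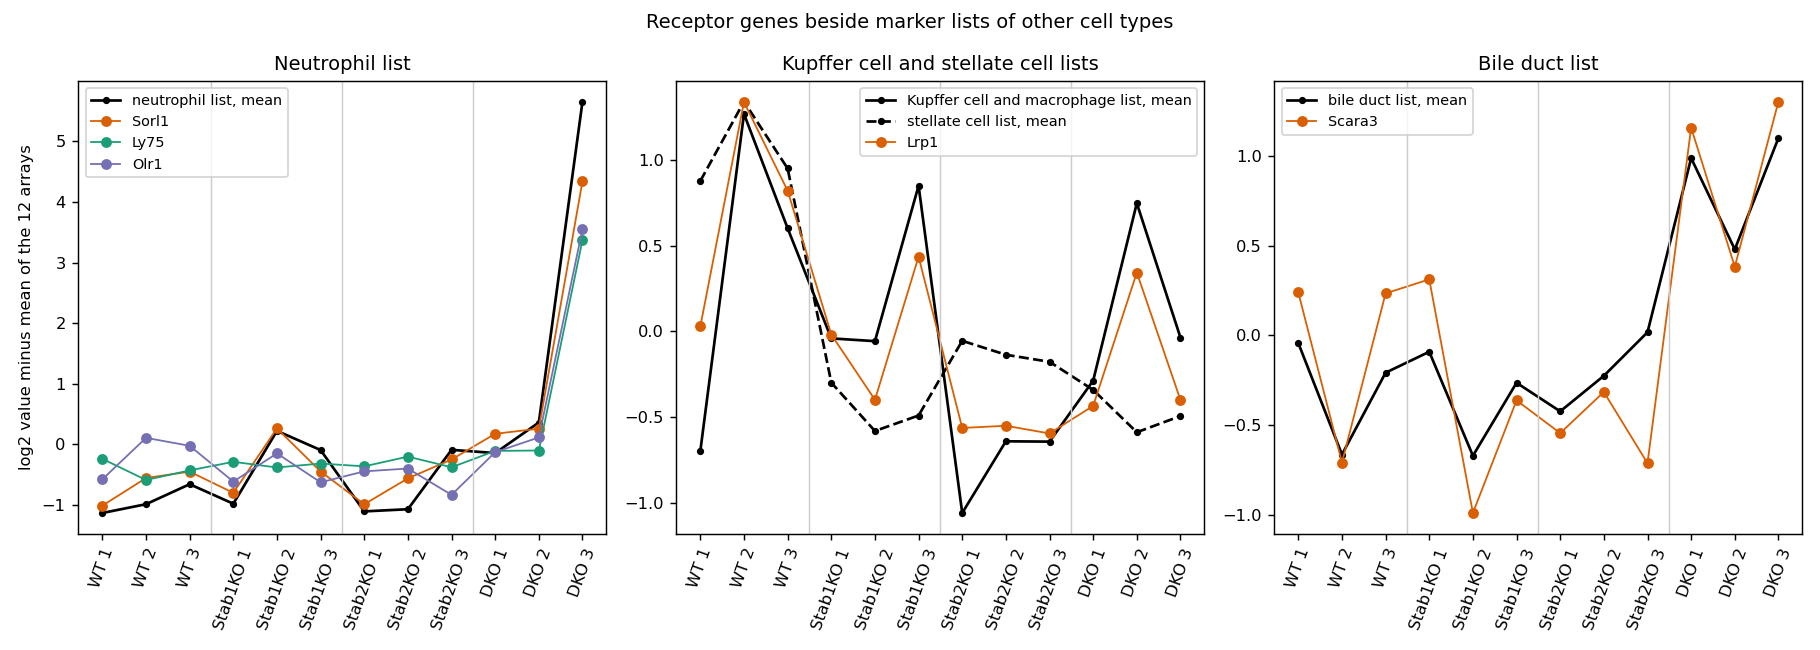
Log2 value minus the mean of the 12 arrays (vertical axis) for marker lists (black) and receptor genes (coloured); lines only join arrays for reading. Sorl1, Ly75 and Olr1 peak with the neutrophil list in DKO replicate 3, Lrp1 is highest in WT replicate 2 with the Kupffer cell and stellate cell lists, and Scara3 is high in the 3 DKO arrays with the bile duct list.

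Lrp1 had the largest difference of all members in both single knockouts. It encodes a large receptor of the LDL receptor family that takes up chylomicron remnants and protease complexes. Lrp1 measured 7.53, 8.84 and 8.32 in WT, 7.49, 7.10 and 7.94 in Stab1KO, 6.94, 6.95 and 6.91 in Stab2KO and 7.07, 7.85 and 7.10 in DKO. The 3 Stab2KO arrays lay close together and below all WT arrays, while Stab1KO and DKO overlapped WT replicate 1. The differences from WT were -0.72 ± 0.32 SE in Stab1KO, -1.30 ± 0.32 SE in Stab2KO and -0.89 ± 0.32 SE in DKO (limma adjusted p = 0.9997, 0.23 and 0.2). None passed, and the SD within WT was 0.66. With WT replicate 1 left out they were -1.07, -1.65 and -1.24, and with WT replicate 2 left out -0.42, -0.99 and -0.59. The 3 comparisons share the WT arrays.

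Kupffer cells are the resident macrophages of the liver, and stellate cells are its vitamin A-storing pericytes. Of 14 Kupffer cell and macrophage markers 0 were called against WT in any knockout, with medians of -0.11, -1.22 and -0.39 in Stab1KO, Stab2KO and DKO. In Stab2KO all 14 lay below 0, and 10 were lower and 0 higher at an unadjusted p under 0.05. There 7.62% of all genes passed in either direction. The mean of the list was 7.82 to 9.79 in WT, 8.46 to 9.37 in Stab1KO, 7.46 to 7.88 in Stab2KO and 8.23 to 9.27 in DKO. The 14 stellate markers had a mean of 8.12 to 8.58 in WT, 6.66 to 6.94 in Stab1KO, 7.06 to 7.19 in Stab2KO and 6.65 to 6.90 in DKO, and 7, 7 and 8 of them were called lower in Stab1KO, Stab2KO and DKO against WT. The part of either cell type in the Lrp1 values was not tested. Mrc2, which encodes the collagen receptor Endo180 of mesenchymal cells, measured 5.03, 4.94 and 5.19 in WT, 4.89, 4.43 and 4.90 in Stab1KO, 4.60, 4.75 and 5.01 in Stab2KO and 4.55, 4.72 and 4.85 in DKO. The Stab1KO and DKO arrays lay below WT without overlap, at -0.31 ± 0.15 SE and -0.35 ± 0.15 SE, and Stab2KO, at -0.27 ± 0.15 SE, overlapped WT (limma adjusted p = 0.9997, 0.28 and 0.75). Without Stab1KO replicate 2 the first of these was -0.16. Apart from WT replicate 3, every array measured Mrc2 below the array median, so the share of background in these values is unknown.

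Scara3, a class A-like scavenger receptor gene linked to oxidative stress, measured 7.83, 6.88 and 7.82 in WT, 7.90, 6.60 and 7.22 in Stab1KO, 7.04, 7.27 and 6.87 in Stab2KO and 8.74, 7.97 and 8.89 in DKO. Each DKO array lay above every array of the other genotypes. The difference from WT was 1.03 ± 0.36 SE (limma adjusted p = 0.19), and 0.85 ± 0.39 SE without DKO replicate 3 (limma adjusted p = 0.37). In Stab1KO and Stab2KO it was -0.27 ± 0.36 SE and -0.45 ± 0.36 SE. The 4 bile duct markers measured moved with it. Their mean was 5.96 to 6.59 in WT, 5.96 to 6.54 in Stab1KO, 6.20 to 6.65 in Stab2KO and 7.11 to 7.73 in DKO, all 4 lay above WT in the 3 DKO arrays, and 3 of 4 (Krt19, Epcam and Sox9) were called higher in DKO against WT. Within WT, Stab1KO and DKO, replicate 2 was the lowest array for both Scara3 and the bile duct list, while in Stab2KO replicate 3 was the lowest for Scara3 and the highest for the list. The part of bile duct RNA in the Scara3 values was not tested.

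Among the sorting receptors, Sort1 and Igf2r lay above WT in Stab1KO and in DKO. Sort1 encodes sortilin, which routes proteins from the Golgi apparatus to endosomes, and measured 9.73, 9.44 and 9.63 in WT, 9.90, 9.79 and 9.78 in Stab1KO, 9.64, 9.64 and 9.74 in Stab2KO and 10.02, 9.82 and 10.55 in DKO. Its Stab1KO and DKO arrays lay above WT without overlap, while Stab2KO overlapped WT. The Stab1KO difference was 0.22 ± 0.16 SE (limma adjusted p = 0.9997). The DKO difference was 0.53 ± 0.16 SE (limma adjusted p = 0.13), or 0.32 ± 0.10 SE without DKO replicate 3. Igf2r, the larger mannose 6-phosphate receptor, which carries lysosomal enzymes and insulin-like growth factor 2, measured 7.46, 7.12 and 7.38 in WT, 7.51, 7.48 and 7.59 in Stab1KO, 7.34, 7.42 and 7.45 in Stab2KO and 7.71, 7.61 and 7.77 in DKO. The DKO arrays were above the other 9, at a difference of 0.38 ± 0.09 SE from WT (limma adjusted p = 0.071), or 0.34 ± 0.10 SE without DKO replicate 3. Its Stab1KO arrays also lay above WT without overlap, at 0.21 ± 0.09 SE (limma adjusted p = 0.9997), and Stab2KO overlapped WT. M6pr, the smaller mannose 6-phosphate receptor, ranged from 10.96 to 11.28 over the 12 arrays, with intervals inside 0.5 log2 of 0 in all 3 knockouts against WT.

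The remaining scavenger receptors differed from WT by at most 0.29. Scarb1 encodes the high-density lipoprotein receptor SR-B1 and measured 11.38, 11.33 and 11.33 in WT, 11.46, 11.47 and 11.46 in Stab1KO, 11.42, 11.47 and 11.45 in Stab2KO and 11.20, 11.26 and 11.02 in DKO. All 3 arrays of each single knockout lay above WT and all 3 of DKO below it, at differences of 0.12 ± 0.07 SE, 0.10 ± 0.07 SE and -0.18 ± 0.07 SE (limma adjusted p = 0.9997, 0.82 and 0.23). The departure from additivity was -0.40 ± 0.10 SE (limma adjusted p = 0.14) and did not pass. Without DKO replicate 3 the DKO difference from WT was -0.11. Scarf1, an endothelial receptor for acetylated lipoprotein and apoptotic cells, ranged from 10.38 to 11.10, with DKO at -0.22 ± 0.10 SE from WT, or -0.10 without DKO replicate 3. Scarf2, Megf10 and Megf11, of which the last pair are related engulfment and cell-spacing receptors of neural tissue, ranged from 5.70 to 6.36, from 3.78 to 4.38 and from 4.80 to 5.44. Scara5, a ferritin receptor gene, ranged from 3.79 to 4.36.

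Of the LDL receptor family besides Lrp1, Lrp10 lay below WT and Vldlr above WT in DKO, and neither passed the test. Lrp10, a receptor of the trans-Golgi network and endosomes, measured 10.95, 10.96 and 10.93 in WT, 11.07, 11.11 and 11.04 in Stab1KO, 10.88, 10.92 and 10.90 in Stab2KO and 10.67, 10.88 and 10.63 in DKO. Its Stab1KO arrays lay above WT and its Stab2KO and DKO arrays below WT, at differences of 0.13 ± 0.07 SE, -0.05 ± 0.07 SE and -0.22 ± 0.07 SE. Vldlr, which encodes the very-low-density lipoprotein receptor, ranged from 4.03 to 4.72, with DKO at 0.34 ± 0.14 SE from WT (limma adjusted p = 0.24). Lrp2, which encodes the kidney receptor megalin, ranged from 3.93 to 4.32. Lrp4, an agrin receptor at the nerve-muscle junction, ranged from 5.96 to 6.78.

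None of the other lectin and uptake receptors passed the test. Cd302, a C-type lectin gene of myeloid and hepatic cells, ranged from 7.33 to 8.18, and its DKO arrays lay below the other 9 at -0.42 ± 0.13 SE from WT (limma adjusted p = 0.13). Pla2r1, the M-type phospholipase A2 receptor, ranged from 9.58 to 10.57. DKO replicate 3 was the lowest array, at 9.58, and the next lowest was 10.25. The difference of DKO from WT was -0.21 with that array and 0.08 without it. Asgr1 and Asgr2, the subunits of the asialoglycoprotein receptor of hepatocytes, stayed between 4.32 and 5.07 and between 3.90 and 4.31, while the mean of 12 hepatocyte markers ranged from 7.97 to 9.44. Amn, which encodes amnionless, measured 4.54, 4.31 and 4.43 in WT, 4.45, 4.54 and 4.68 in Stab1KO, 4.62, 5.05 and 4.95 in Stab2KO and 4.49, 4.80 and 4.50 in DKO. Its Stab2KO arrays lay above WT without overlap, at 0.45 ± 0.13 SE (limma adjusted p = 0.35), in a range below the array median. Cubn, which encodes its partner cubilin, ranged from 3.53 to 3.79, and Ager, the receptor for advanced glycation end products, ranged from 5.35 to 5.99.

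Between the knockouts, 1 of 35 members was called in DKO against Stab1KO and 2 in DKO against Stab2KO, all of them Tfrc or Fcgrt, where 0.945% and 3.42% of all genes were called. Tfrc was the higher member in both, where 0.546% and 1.3% of all genes were called higher, and Fcgrt the lower one in the second, where 2.12% were called lower. In Stab1KO against Stab2KO 0 members were called by limma, against 0.108% of all genes, with 2 higher and 1 lower at an unadjusted p under 0.05, which 7.07% of all genes passed. For the departure from additivity 0 members were called by limma, against 0.05% of all genes, with 3 higher and 7 lower at an unadjusted p under 0.05, which 12.5% of all genes passed. Of those 10, the lowest adjusted p was that of Tfrc, 0.11.

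Related receptors outside the 35 were read from a list of 32, of which 31 were measured. In Stab1KO and Stab2KO against WT 0 were called by limma, with 0 and 6 at an unadjusted p under 0.05, where 3.91% and 7.62% of all genes passed. In DKO against WT 1 of 31 was called lower, where 1.05% of all genes were. That gene was Colec12, which encodes a collectin-like scavenger receptor of endothelium, at 8.13, 8.25 and 8.27 in WT and 7.55, 7.61 and 7.39 in DKO (difference -0.70 ± 0.09 SE, limma adjusted p = 0.0043). All 3 DKO arrays lay below the other 9, and the difference was -0.64 without DKO replicate 3 (limma adjusted p = 0.0092). With all 12 arrays Colec12 was also called lower against Stab1KO and Stab2KO (-0.75 and -0.66, limma adjusted p = 0.0074 and 0.01). Both calls stayed without DKO replicate 3 (-0.69 and -0.59, limma adjusted p = 0.011 and 0.014). With all 12 arrays, DKO against Stab2KO was also higher for Cd68, a macrophage endosome protein gene (1.81 ± 0.40, limma adjusted p = 0.039). It was lower for Lrp11 (-0.84 ± 0.18, limma adjusted p = 0.037). Without DKO replicate 3 the differences were 1.79 and -0.84 and neither passed (limma adjusted p = 0.063 and 0.057). In that fit Cd36, also on the list of 32, was called higher against Stab2KO (0.39 ± 0.08 SE, limma adjusted p = 0.035). There 1.96% of all genes were called higher. Against WT the Cd36 difference in that fit was 0.23 and did not pass (limma adjusted p = 0.22). With all arrays Cd36 differed from Stab2KO by 0.30 and was not called. Cd68 is also on the list of 14 Kupffer cell and macrophage markers, of which 13 lay above 0 in DKO against Stab2KO, with a median of 0.98. Their part in the Cd68 value was not tested. Members of the list with the largest differences from WT that did not pass were Clec4e (0.89) and Cd14 (0.50) in Stab1KO, Siglec1 (-1.72) and Cd163 (-1.50) in Stab2KO, and Clec4e (2.94) and Cd14 (2.06) in DKO, all myeloid receptor genes. Clec4e measured 6.82, 7.55 and 12.08 in DKO and Cd14 8.48, 9.22 and 12.47, both highest in the array where the neutrophil markers were highest. Without that array their differences were 1.31 and 0.86.

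Of 19 chaperone, adaptor and trafficking genes that serve these receptors, 15 were measured and 0 were called by limma in any of the 7 comparisons. In DKO against WT 12 of 15 lay below 0, where 56% of all genes did, and 8 were lower at an unadjusted p under 0.05, where 10.7% of all genes were. The median was -0.26, against -0.02 for all genes. In Stab1KO and Stab2KO the medians were -0.06 and -0.04.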

How the data were processed

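LSECs were measured on 12 Affymetrix arrays, 3 for each of 4 genotypes, and each pool was taken as 1 replicate, per the labels. The deposited values are log2 expression values normalized by the authors with RMA, per the submitters' processing notes. Its version was not given in the sources used here. Of 24973 rows, 24015 carried 1 symbol in the platform annotation. Where a symbol had more than 1 row, the row with the highest mean was kept, which left 24011 genes. One limma 3.58.1 model in R 4.3.3 with 4 group means was fitted to all 12 arrays. It gave 7 contrasts and a moderated F-test over the 3 knockouts against WT, each two-sided with Benjamini-Hochberg adjustment over all genes, and was tested on simulated data. The simulated noise was independent between arrays and no array stood apart as DKO replicate 3 did, so that setting was not tested. The number of arrays limits the precision.

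The members, gene lists and marker lists were chosen with earlier results of these data known. Values on every array are given for members called in any test, for the 6 with the largest absolute difference in each knockout against WT and for the 6 with the highest mean. Those of Igf2r, Sort1, Scarb1 and Lrp10 were added after their values were seen. Alternatives were a replicate block, a low-signal filter, trend and robust variance, array weights, the compared arrays only, median centring, quantile normalization, every row kept, and each array left out. Counts and list genes without DKO replicate 3 were added after seeing the data.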

Additional observations from a re-analysis of the deposited data

How the results depend on the processing

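Median centring, quantile normalization and keeping every row moved no count by over 1.5 times and changed no call on a named receptor. Whether the replicate numbers pair the arrays is unsettled. Arrays were to be taken as unpaired below a correlation of 0.1, and 4 of 18 same-numbered pairs lay above it (range -0.06 to 0.29). Some differently numbered pairs also lay above it (range -0.27 to 0.21). The main model has no pairing term. With the replicate as a block, members called were 0 in DKO against WT (Fcgrt, limma adjusted p = 0.061), 2 in DKO against Stab1KO and 0 in the F-test, and 6 of all genes departed from additivity in place of 12. The filter on low signal, which kept 14406 genes and 29 members, gave 2 members in DKO against Stab1KO and 28 genes for additivity, and in DKO against WT it exchanged Fcgrt (limma adjusted p = 0.056) for Tfrc (0.039). Trend and robust variance gave 2 members in DKO against WT, 2 in the F-test and 35 genes for additivity. Array weights called 148 genes in Stab2KO against WT, 1111 in DKO against WT with 2 members, 466 in DKO against Stab1KO, 1789 in DKO against Stab2KO, 41 in Stab1KO against Stab2KO and 199 for additivity with 1 member. Fitting only the arrays compared leaves fewer samples for the spread. It called 29 genes in Stab2KO against WT, 97 in DKO against WT, 18 in DKO against Stab1KO, 4 in DKO against Stab2KO and 15 in Stab1KO against Stab2KO, and 0 members in each, with limma adjusted p of 0.17 and 0.16 for Fcgrt against WT and Stab2KO and 0.20 and 0.12 for Tfrc against Stab1KO and Stab2KO. With 1 array left out, all genes called ran from 46 to 81 in Stab1KO against WT, 33 to 92 in Stab2KO against WT, 125 to 510 in DKO against WT, 22 to 357 in DKO against Stab1KO, 45 to 854 in DKO against Stab2KO, 12 to 43 in Stab1KO against Stab2KO and 3 to 112 for additivity. Members called ran from 0 to 1 in DKO against WT, DKO against Stab1KO, additivity and the F-test, and from 0 to 4 in DKO against Stab2KO. The sign turned for Msr1 in DKO against WT (range over the left-out arrays -0.0088 to 0.099, lowest without WT replicate 1) and for Scara3 in Stab1KO against WT (range -0.60 to 0.054, highest without Stab1KO replicate 2). Beyond the fewer samples of such fits, the cause of these shifts was not tested.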
